A study of Mus musculus with 12 samples.

Results

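Medium from p53-knockout breast cancer cells was set against medium from p53 wild-type breast cancer cells, both given to mouse fat cell precursors while these differentiated. The comparison takes 6 of the 12 libraries of the series, 3 of cells given knockout medium (KO CM) and 3 of cells given wild-type medium (WT CM), chosen by the treatment named in the labels. All sequenced cells were 3T3-L1, 1 established mouse preadipocyte line with a wild-type genotype, which stores fat once given hormonal inducers. The cancer cells, called WEP in the labels, carried the p53 knockout or wild-type p53 but only the fat cells were sequenced, and their own Trp53 cannot test which medium a library had. Both media groups went through the same induction in 10% fetal bovine serum, with dexamethasone at 1 µM, rosiglitazone at 2 µM, isobutylmethylxanthine at 0.5 mM and insulin at 1 µg/mL in the first 2 days, insulin alone for 2 days more, and maintenance medium afterwards. Filtered cancer cell medium made up an equal part of the volume at each step, which thinned the inducers equally in KO CM and WT CM. The other 6 libraries, 3 of cells differentiated without cancer cell medium (regular) and 3 of undifferentiated cells grown in 10% calf serum, give the scale of normal differentiation. The labels do not say that replicates were separate cultures, so the p-values reflect library-to-library spread that may be technical.

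As background, adipogenesis runs through a cascade in which C/EBP-beta and C/EBP-delta (genes Cebpb and Cebpd) act early and PPAR-gamma (Pparg) and C/EBP-alpha (Cebpa) act later. The later pair sustains the genes of lipid droplets, fatty acid uptake, triglyceride synthesis and the adipokines. Preadipocytes and fibroblasts make collagen-rich matrix and chemokines. The serum amyloid Saa3 and the iron-carrier binding protein Lcn2 are acute phase proteins, and inflammatory cytokines are known to oppose PPAR-gamma in adipocytes.

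Each library gave 987496 to 1376688 UMIs (counted RNA molecules) with KO CM and 1551876 to 2278126 UMIs with WT CM, so KO CM was the shallower group. Levels are given as CPM, UMI counts relative to the library total after TMM scaling, which adjusts for differing library composition. In a principal component analysis of the 6 libraries, the first component held 37.2% of the variance and separated KO CM from WT CM, and the second held 19.5% and spread the KO CM libraries among themselves. The WT CM libraries lay together, at -17.0, -19.5 and -17.7 on the first component and -0.31, -0.46 and -2.60 on the second. By raw counts, WT CM replicate 3 stood apart from WT CM replicates 1 and 2. The chi-square per degree of freedom was 5.58 and 5.29, against 1.66 between replicates 1 and 2. Some genes jumped between replicates, with or without near-identical copies. Gapdh, a glycolysis gene with many copies in the genome, had 76.0, 66.5 and 2446 CPM in KO CM, against 3122, 3271 and 114 CPM in WT CM. Mir692-1 had the largest jump, with 14.8, 1107 and 7.81 CPM in KO CM, against 8.82, 8.98 and 1192 CPM in WT CM. In all, 12 genes with a mean of at least 50 CPM jumped at least 3-fold within KO CM or WT CM, and none of them was called. They include B2m, the class I light chain, with 1018, 885 and 291 CPM in KO CM, and the heme oxygenase Hmox1, with 144, 552 and 541 CPM in KO CM.

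Of 9378 genes tested, 1174 (12.5%) differed between KO CM and WT CM at a Benjamini-Hochberg adjusted p under 0.05 in edgeR's quasi-likelihood test. Of these, 550 (5.86%) were higher and 624 (6.65%) lower in KO CM, and the median size of a called difference was 0.58 on the log2 scale. These shares are the background for the called members of every list below. Scaling by total counts alone put the median log2 fold change of all genes at -0.07, against 0.01 with TMM, and gave 357 higher and 817 lower. A fold change of at least 2-fold either way was reached by 207 called genes (2.21% of those tested), 54 higher and 153 lower. All 3 KO CM libraries lay above all 3 WT CM libraries for 1213 genes (12.9%) and below them for 1257 genes (13.4%). Without KO CM replicate 3, 756 genes were called. At the same threshold the authors' deposited table has 360 genes higher and 391 lower in KO CM, after its direction, WT CM over KO CM, is turned round, and 352 and 389 of them were also called here.

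**Figure D1:**
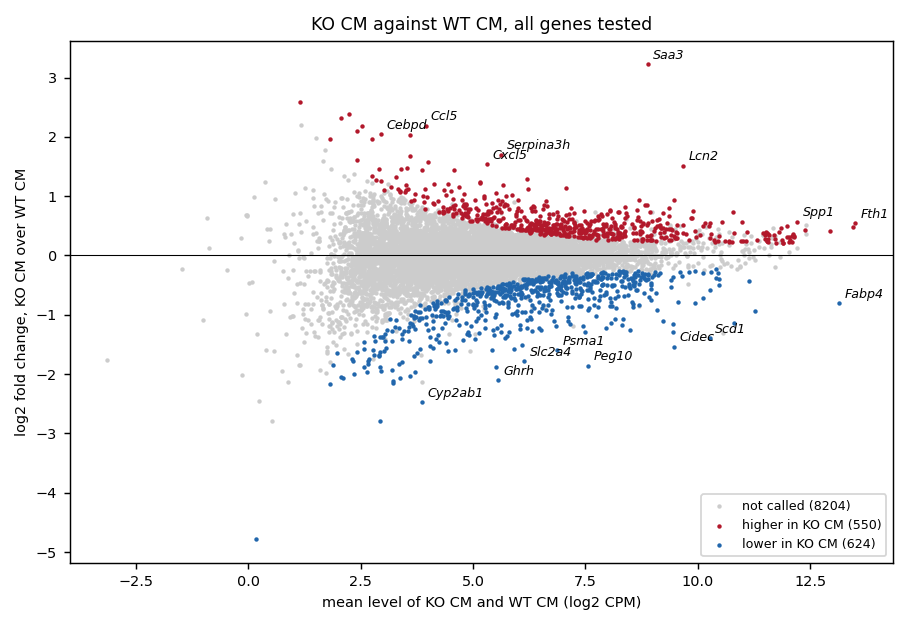
Each point is 1 of the genes tested, with the mean level in KO CM and WT CM on the x axis (log2 CPM) and the log2 fold change of KO CM over WT CM on the y axis. Saa3 (3.22) stands above all genes of its level, the 624 lower genes reach further from 0 than the 550 higher ones, and the lowest point, Lrr1, had no count in the KO CM libraries, so its fitted value depends on the prior count.

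The smallest p-value of the whole table was that of Saa3, an inflammation-induced serum amyloid (chr7:46711998-46715700, minus strand, GRCm38). Saa3 had 798, 933 and 835 CPM in KO CM, against 95.7, 103 and 78.6 CPM in WT CM, a log2 fold change of 3.22 ± 0.11 (SE, edgeR adjusted p = 1.18e-25). Every KO CM library was thus far above every WT CM library, by 9.32-fold on average, while regular and undifferentiated cells were near the detection limit at 1.496 and 0.612 CPM. Lcn2, which binds bacterial iron carriers and is secreted by inflamed adipocytes (chr2:32384633-32388252, minus strand), had 1113, 1555 and 980 CPM in KO CM, against 417, 437 and 420.0 CPM in WT CM. The KO CM libraries differed more among themselves than the WT CM libraries, yet none overlapped with them, and the log2 fold change was 1.51 ± 0.11 (edgeR adjusted p = 4.35e-11). Lcn2 averaged 31.2 CPM in regular and 4.52 CPM in undifferentiated cells. Saa3 is uncertain in so far as members of its family share sequence.

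Single genes that moved in opposite directions, and that do not represent all members of their groups, were picked for their promoters. Shown are the promoters of 2 acute phase genes and 1 interferon-induced gene, all higher in KO CM, and of 1 lipid droplet gene, lower in KO CM. They are RefSeq windows on GRCm38.p6, from 250 bases before to 50 bases after a gene start, read 5′ to 3′ on the minus strand, at chr7:46715627-46715926 (Saa3), chr2:32387690-32387989 (Lcn2), chr8:71537423-71537722 (Bst2) and chr7:79732727-79733026 (Plin1). Capitals mark matches, on either strand, to the C/EBP motif TTGCNNAA or to the interferon element, which is GAAA, 2 bases of any kind and GAAA again.
Saa3: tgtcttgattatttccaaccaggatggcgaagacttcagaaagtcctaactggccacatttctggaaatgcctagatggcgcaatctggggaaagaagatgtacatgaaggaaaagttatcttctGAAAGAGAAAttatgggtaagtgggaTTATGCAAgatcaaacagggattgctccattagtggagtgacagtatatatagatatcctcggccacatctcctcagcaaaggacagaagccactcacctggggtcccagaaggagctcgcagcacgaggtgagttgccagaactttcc
Lcn2: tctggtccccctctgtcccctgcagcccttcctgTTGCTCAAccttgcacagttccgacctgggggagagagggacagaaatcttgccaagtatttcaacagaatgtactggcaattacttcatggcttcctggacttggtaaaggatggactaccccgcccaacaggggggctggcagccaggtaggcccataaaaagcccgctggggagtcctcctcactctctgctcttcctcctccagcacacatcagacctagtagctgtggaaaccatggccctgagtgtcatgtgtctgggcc
Bst2: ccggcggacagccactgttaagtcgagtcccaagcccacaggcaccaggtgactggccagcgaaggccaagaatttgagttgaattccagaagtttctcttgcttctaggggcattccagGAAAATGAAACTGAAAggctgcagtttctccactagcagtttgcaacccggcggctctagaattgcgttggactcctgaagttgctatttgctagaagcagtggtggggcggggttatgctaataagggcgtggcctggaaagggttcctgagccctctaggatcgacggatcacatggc
Plin1: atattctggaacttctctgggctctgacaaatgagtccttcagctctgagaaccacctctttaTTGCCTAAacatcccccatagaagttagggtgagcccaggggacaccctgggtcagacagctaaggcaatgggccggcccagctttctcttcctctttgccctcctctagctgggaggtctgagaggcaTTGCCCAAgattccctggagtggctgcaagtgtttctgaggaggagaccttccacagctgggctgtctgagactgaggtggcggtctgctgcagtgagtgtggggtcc
The Saa3 window has a C/EBP match 99 bases and an interferon element 125 bases before the start, and the Lcn2 window has a C/EBP match 216 bases before it. For Lcn2 the RefSeq start differs from that of the GENCODE coordinates given above, and the whole window lies inside that GENCODE span. The Bst2 window has interferon elements at 130 and 124 bases before the start that overlap each other, and the Plin1 window has C/EBP matches at 187 and 58 bases before it. Windows were found for 7562 of the tested genes, some with more than 1. The C/EBP motif was in 8.45% of the windows of genes higher in KO CM, 10.6% of those of genes lower in KO CM, and 8.29% of those of all tested genes. The interferon element was in 5.0% of windows of higher genes, 2.57% of windows of lower genes and 2.92% of windows of all tested genes. The kappaB motif, GGGA and TTCC with 2 bases between them, was in 1.38%, 1.21% and 1.44% of these windows in the same order, the AP-1 motif TGANTCA in 5.86%, 8.47% and 4.96%, the cyclic AMP element TGACGTCA in 1.72%, 2.87% and 3.06%, and the amino acid response motif TGATGNAA in 1.55%, 2.12% and 2.09%. These matches describe letters in the windows and are not binding sites.

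Other acute phase genes moved in both directions. Of 18 tested, 7 were higher and 3 lower in KO CM, with a median log2 fold change of 0.25, beside 5.86% higher, 6.65% lower and a median of 0.01 over all genes tested. Besides Saa3 and Lcn2, the higher ones were the chitinase-like Chil1 (1.00 ± 0.18), Serpina3g (0.87), Serpina3m (0.78 ± 0.13), Orm3 (0.70) and the pentraxin Ptx3 (0.67), while Itih4 (-0.84 ± 0.16), Orm1 (-0.65 ± 0.17) and the metalloreductase Steap4 (-0.46 ± 0.16) were lower. Steap4 and Orm1 lost the call without KO CM replicate 3, which left 1 lower member, and Steap4 also lost it without KO CM replicate 2, WT CM replicate 2 or WT CM replicate 3. Serpina3h, a relative of the Serpina3 genes that the annotation types as a transcribed pseudogene and that was not listed, had 77.0, 77.6 and 73.4 CPM in KO CM, against 19.7, 25.0 and 24.6 CPM in WT CM (1.70 ± 0.19, edgeR adjusted p = 4.38e-09). The Serpina3 and Orm families hold near copies, so their members are uncertain. Lbp, a lipopolysaccharide binding protein noticed after its values were seen, averaged 71.1 ± 8.58 CPM in KO CM and 31.1 ± 5.74 CPM in WT CM (SD, n = 3 each), a log2 fold change of 1.18 ± 0.19.

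**Figure D2:**
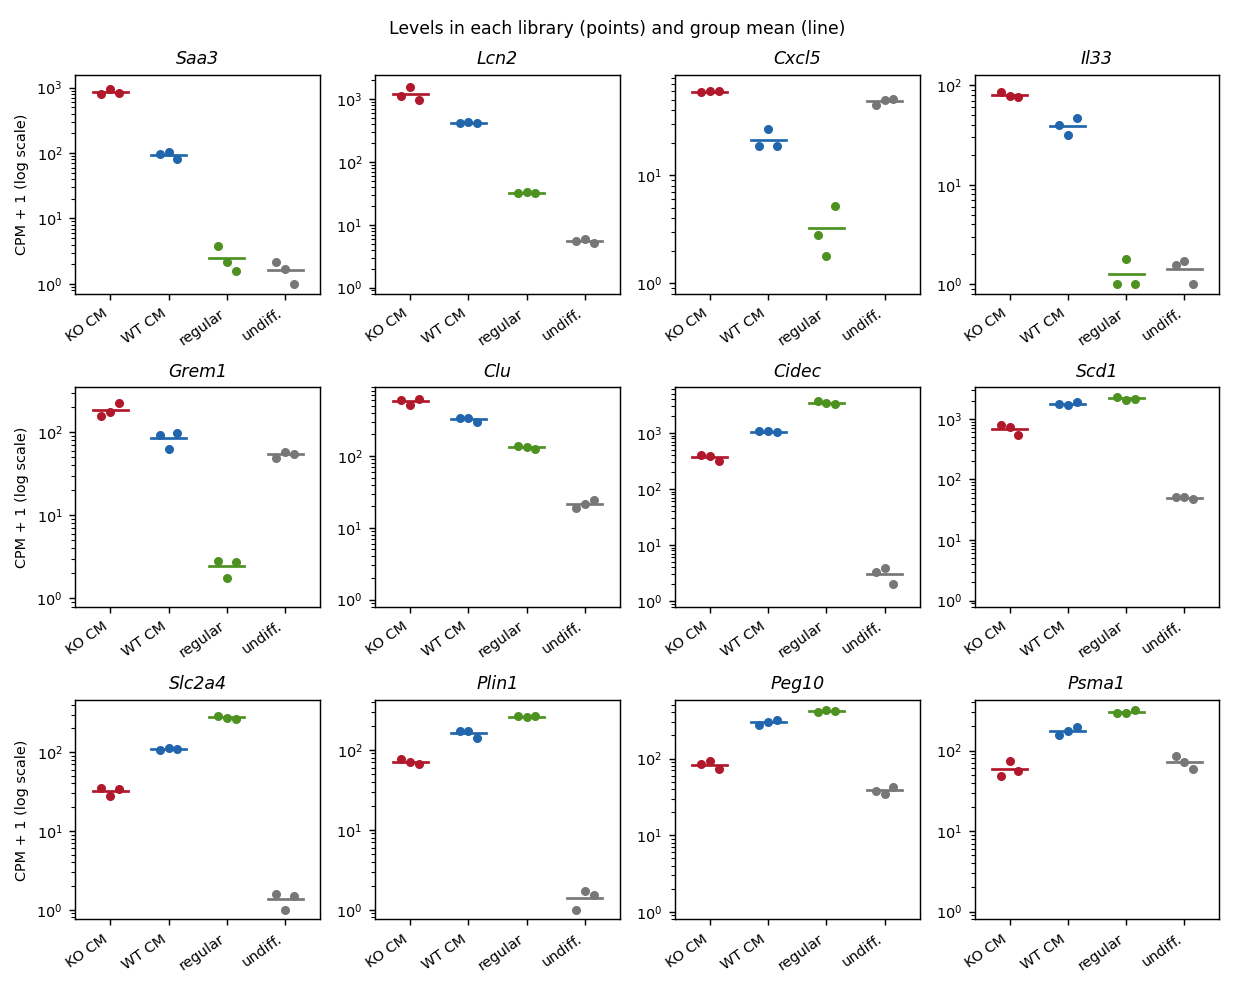
Points are single libraries and lines are group means of CPM + 1 on a log axis, for KO CM, WT CM, regular and undifferentiated cells. Saa3, Lcn2, Cxcl5, Il33, Grem1 and Clu are higher in KO CM than in WT CM, and Cidec, Scd1, Slc2a4, Plin1, Peg10 and Psma1 are lower, with no overlap between the KO CM and WT CM libraries.

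Chemokines were the list with the highest median. Of 14 tested, 7 were higher in KO CM and none lower, with a median log2 fold change of 0.74, and their summed level was 2903 to 3084 CPM in KO CM, against 1713 to 1907 CPM in WT CM. Ccl5, which attracts T cells and monocytes (chr11:83525778-83530518, minus strand), had 27.6, 26.6 and 21.9 CPM in KO CM, against 5.43, 4.49 and 6.14 CPM in WT CM, a log2 fold change of 2.19 ± 0.32. Cxcl5, a neutrophil attractant (chr5:90759360-90761624, plus strand), had 58.2, 58.7 and 58.6 CPM in KO CM, against 17.6, 25.6 and 17.6 CPM in WT CM (1.54 ± 0.20). For both genes the level in KO CM was near that of undifferentiated cells, at 31.0 and 47.4 CPM, and regular cells had 4.50 and 2.25 CPM. Ccl2, the main monocyte attractant, had 363, 316 and 324 CPM in KO CM, against 170.4, 201 and 222 CPM in WT CM (0.75 ± 0.10, edgeR adjusted p = 3.1e-07). Cxcl12, which retains leukocytes and progenitors through the receptor Cxcr4, was the most abundant of the 4 at 2202 ± 96.5 CPM in KO CM and 1322 ± 79.8 CPM in WT CM (0.74 ± 0.08). Cxcl1 (0.83), Ccl9 (0.85) and the scavenging receptor Ackr3 (0.78) were also higher. Cxcl10 had a log2 fold change of 2.21 ± 0.83 but was not called (edgeR adjusted p = 0.0746), with 8.88, 0 and 2.34 CPM in KO CM, against 0.679, 0.641 and 0.878 CPM in WT CM.

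Among 15 tested cytokines and growth factors, 5 were higher and 1 lower in KO CM, with a median log2 fold change of 0.42. The alarmin Il33 had 84.9, 76.5 and 75.0 CPM in KO CM, against 38.7, 30.8 and 45.6 CPM in WT CM (1.01 ± 0.17). Regular and undifferentiated cells held almost none of it, at 0.259 and 0.424 CPM. Spp1, the secreted phosphoprotein osteopontin, had 6095, 5655 and 5324 CPM in KO CM, against 3634, 3713 and 4146 CPM in WT CM (0.57 ± 0.07). The macrophage growth factor Csf1 averaged 316 ± 5.49 CPM in KO CM and 223 ± 28.5 CPM in WT CM (0.50 ± 0.09), the keratinocyte growth factor Fgf7 was higher by 0.86 and the lymphatic growth factor Vegfc by 0.68. The lower member was the vascular growth factor Vegfa (-0.26 ± 0.09), whose call was lost under most alternatives, among them the fits without WT CM replicate 1 or 2 or KO CM replicate 2 or 3. Il6 and the immune checkpoint ligand Cd274 had too few counts for the test, with means of 3.25 and 2.94 CPM in KO CM and 2.92 and 1.23 CPM in WT CM. Arg1 and Nos2 were not analysed here.

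The complement genes called were mostly higher. Of 13 tested members, 5 were higher and 1 lower in KO CM, with a median log2 fold change of 0.34. Over all genes tested, 5.86% were higher and 6.65% lower. The summed complement level was nevertheless 4834 to 5308 CPM in KO CM, against 5616 to 5900 CPM in WT CM. The C1 inhibitor Serping1 had 15.8, 23.3 and 19.5 CPM in KO CM, against 4.75, 3.21 and 5.71 CPM in WT CM (2.03 ± 0.37). The chaperone Clu averaged 582 ± 64.4 CPM in KO CM and 322 ± 21.2 CPM in WT CM (0.86 ± 0.09), and the complement proteases C1s1 and C1ra were higher by 0.82 ± 0.10 and 0.76 ± 0.10, both uncertain because each has a near copy. C1qtnf1 was the other higher member (1.09 ± 0.35). The lower one was Cfd, the adipokine adipsin, at 1115 ± 171 CPM in KO CM and 2450 ± 165 CPM in WT CM (-1.14 ± 0.16).

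Receptors and effectors of inflammatory signalling were higher in part, beside 5.86% higher and 6.65% lower over all genes tested. Of 21 tested genes of the NF-kappaB response, 6 were higher in KO CM and none lower, with a median log2 fold change of 0.16, and 3 were higher without WT CM replicate 1. The lipopolysaccharide co-receptor Cd14 had 88.8, 73.2 and 89.1 CPM in KO CM, against 50.9, 43.6 and 39.1 CPM in WT CM (0.93 ± 0.17). The adhesion molecule Vcam1 (0.56 ± 0.13), Tnfaip2 (0.42 ± 0.10), Tlr2 (0.72 ± 0.24), Birc3 (0.61 ± 0.20) and Nfkb1 (0.49 ± 0.16) made up the rest, and the inhibitor genes Nfkbia (0.16) and Tnfaip3 (-0.56) were not called. Of 28 tested genes of the type I interferon response, 6 were higher and none lower, with a median of 0.63. The viral tethering factor Bst2 had 349, 470.0 and 437 CPM in KO CM, against 276, 265 and 255 CPM in WT CM (0.66 ± 0.10), and Isg15 (0.69), Irgm1 (0.75), Ifit1 (1.35), Zbp1 (1.47 ± 0.37) and Ifit3b (2.33 ± 0.60) were the other higher members. Their count fell to 2 without KO CM replicate 1 and to 3 without KO CM replicate 3, WT CM replicate 2 or WT CM replicate 3, with Zbp1 lost without KO CM replicate 2 (edgeR adjusted p = 0.0546) and Ifit3b lost without KO CM replicate 1 (edgeR adjusted p = 0.121). The Ifit genes are near copies of each other. The summed interferon level of 1417 to 1524 CPM in KO CM, against 1252 to 1267 CPM in WT CM, stayed below the 2800.1 to 3321 CPM of undifferentiated cells.

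Beside 5.86% higher and 6.65% lower over all genes tested, antigen presentation and immunomodulatory genes gave no common direction. Of 19 tested genes of MHC class I presentation, H2-K1, a classical class I heavy chain, was called and was lower in KO CM (-0.42 ± 0.08), with 2 lower without KO CM replicate 2, and the list's median was 0.00, or -0.07 with total counts. Of 11 immunomodulatory ligands and enzymes, the galectins Lgals9 (0.49 ± 0.09) and Lgals1 (0.27 ± 0.07) were higher, and the checkpoint protein Vsir (-0.75), the poliovirus receptor Pvr (-0.69) and Tgfb1 (-0.57 ± 0.15) were lower. The median was 0.05, or -0.03 with total counts. Without KO CM replicate 3 or without WT CM replicate 1 the list had 1 lower member, and without WT CM replicate 2 or KO CM replicate 2 it had 1 higher member. In prostaglandin metabolism, 3 of 18 tested genes were higher, the cyclooxygenase Ptgs1 (270 ± 17.3 CPM in KO CM and 171 ± 17.8 CPM in WT CM, 0.66 ± 0.10), the prostacyclin synthase Ptgis (0.54 ± 0.11) and the aldo-keto reductase Akr1b8 (0.37 ± 0.09). Another 4 were lower, the phospholipase Plaat3 (-1.20) and the carbonyl reductases Cbr1 (-1.08 ± 0.14), Cbr2 (-0.52 ± 0.09) and Cbr3 (-0.45), and the list had 2 lower members without KO CM replicate 3. Inducible Ptgs2 (-0.16 ± 0.48, edgeR adjusted p = 0.897) and Ptges (0.21 ± 0.12, edgeR adjusted p = 0.298) were not called. The list's median was 0.03, or -0.04 with total counts.

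Of 14 tested adipocyte transcription factors, 5 were lower and 2 higher in KO CM, with a median log2 fold change of -0.19. Pparg (chr6:115360951-115490399, plus strand) had 264, 286 and 256 CPM in KO CM, against 442, 489 and 537 CPM in WT CM (-0.87 ± 0.09, edgeR adjusted p = 5.1e-10). Cebpa (chr7:35119293-35121928, plus strand) had 73.0, 97.5 and 102 CPM in KO CM, against 194, 172 and 195 CPM in WT CM (-1.04 ± 0.11). The KO CM levels of both lay below every WT CM library and above undifferentiated cells, which had 32.6 and 4.71 CPM. Klf15 (-0.99 ± 0.15), the liver X receptor Nr1h3 (-0.60 ± 0.14) and the lipogenic factor Srebf1 (-0.46 ± 0.11) were also lower. The 2 called higher were the early factors Cebpd, at 11.8, 7.76 and 17.2 CPM in KO CM, against 1.36, 5.77 and 2.19 CPM in WT CM (2.04 ± 0.46), and Cebpb (0.30 ± 0.08). Cebpd lost the call without KO CM replicate 3 (edgeR adjusted p = 0.0532), and Cebpb lost it without WT CM replicate 2, without KO CM replicate 2 and with total counts.

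Adipocyte markers showed the lowest median of the lists with at least 5 tested members. Of 24 tested, 19 were lower in KO CM and none higher, with a median log2 fold change of -0.97, and all 24 had a negative value. Their summed level was 12952 to 14538 CPM in KO CM, against 24691 to 25647 CPM in WT CM, and regular cells had 40458 to 42611 CPM and undifferentiated cells 251 to 331 CPM. Adipocyte markers were thus well above undifferentiated cells in both media groups, but preadipocyte markers were not reduced as in regular cells. The summed preadipocyte markers were 2933 to 3129 CPM in KO CM and 2257 to 2443 CPM in WT CM. Regular cells had 814 to 895 CPM of these and undifferentiated cells 2427 to 2451 CPM. In these bulk libraries, fewer fat-storing cells and less adipocyte RNA per cell cannot be told apart. Cidec, which fuses lipid droplets (chr6:113424634-113435760, minus strand), fell to 399, 386 and 313 CPM in KO CM, against 1079, 1071 and 1025 CPM in WT CM (-1.54 ± 0.09, edgeR adjusted p = 2.3e-17). The insulin-responsive glucose transporter Slc2a4 (chr11:69942539-69948188, minus strand) had 34.5, 26.6 and 32.8 CPM in KO CM, against 106, 112 and 110 CPM in WT CM (-1.79 ± 0.14). The fatty acid carrier Fabp4, the most abundant marker, had 6852, 6792 and 6032 CPM in KO CM, against 11349, 11799 and 11311 CPM in WT CM (-0.81 ± 0.07). Within each of these genes the replicates lay close together and the groups were well apart.

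The adipokine Adipoq averaged 1694 ± 137 CPM in KO CM and 3241 ± 71.2 CPM in WT CM (-0.94 ± 0.09), the droplet coat protein Plin1 70.4 ± 4.99 CPM in KO CM and 161 ± 18.9 CPM in WT CM (-1.19 ± 0.12), and the adipokine Retn 195 ± 31.5 CPM in KO CM and 436 ± 4.54 CPM in WT CM (-1.17 ± 0.11). The fatty acid uptake receptor Cd36 had 31.6, 22.2 and 7.03 CPM in KO CM, against 56.3, 69.9 and 84.7 CPM in WT CM (-1.88 ± 0.26), with a wide spread among the KO CM libraries. The lipases Pnpla2 (-0.81 ± 0.08), Lipe (-0.83 ± 0.16) and Mgll (-1.25) were lower as well. Not called were Insr (-1.41), Car3 (-0.99), Aqp7 (-0.53), lipoprotein lipase Lpl (-0.22 ± 0.09) and angiotensinogen Agt (-0.19 ± 0.10), the last at 1152 ± 21.5 CPM in KO CM and 1310.3 ± 102 CPM in WT CM. Of the preadipocyte markers, 7 of 19 tested were higher and none lower, with a median of 0.46, all 19 positive. They included Thy1 (562 ± 67.3 CPM in KO CM and 385 ± 18.6 CPM in WT CM, 0.55 ± 0.09), the growth factor receptor Pdgfra (0.53 ± 0.10) and the adipogenesis inhibitor Dlk1 (1.08 ± 0.36), and 4 were called without WT CM replicate 1.

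**Figure D3:**
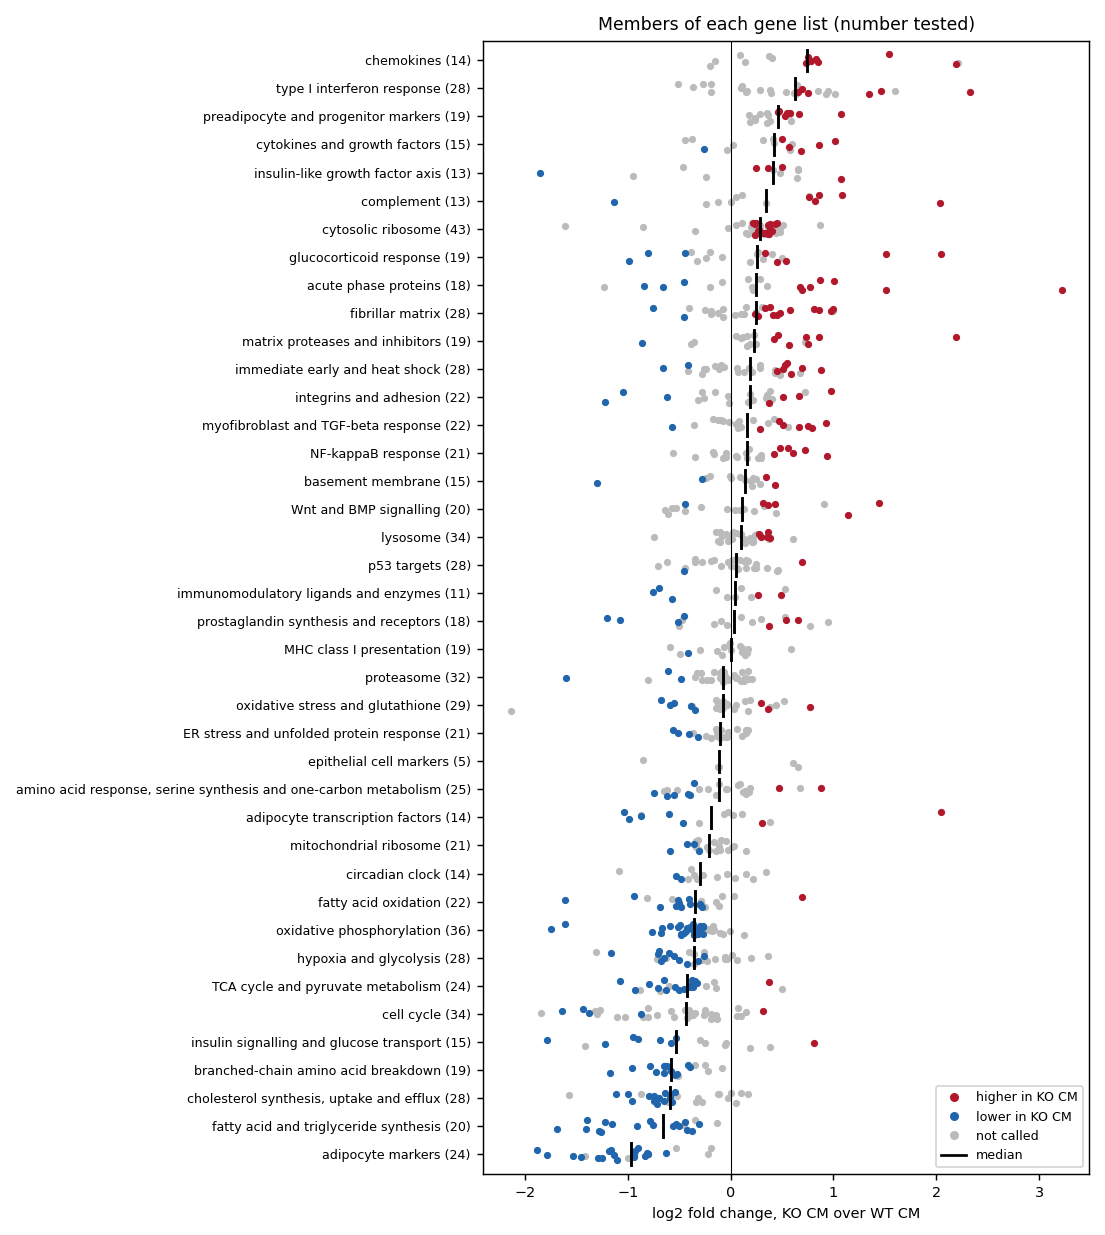
Each row is a list with at least 5 tested members, ordered by median, and each point is a member's log2 fold change of KO CM over WT CM, with the median as a black line. Chemokines have the highest median (0.74) and adipocyte markers the lowest (-0.97), where all 24 points lie below 0.

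Lipid synthesis was lower in KO CM across most of the pathway. Of 20 tested genes of fatty acid and triglyceride synthesis, 17 were lower and none higher, with a median log2 fold change of -0.66 and a summed level of 2893 to 3470 CPM in KO CM, against 5961 to 6514 CPM in WT CM. The desaturase Scd1 (chr19:44394455-44407879, minus strand) had 779, 718 and 543 CPM in KO CM, against 1740, 1681 and 1920 CPM in WT CM (-1.39 ± 0.09, edgeR adjusted p = 9.43e-15). Undifferentiated cells had 49.2 CPM. The acyl-CoA synthetase Acsl1 averaged 434 ± 59.0 CPM in KO CM and 959 ± 98.3 CPM in WT CM (-1.15 ± 0.10). Fatty acid synthase Fasn (-1.68 ± 0.45) and the last enzyme of triglyceride assembly, Dgat2 (-1.26 ± 0.16), were among the other lower members. Gpd1, which supplies the glycerol backbone and was listed with the adipocyte markers instead, had 373 to 443 CPM in KO CM, against 881 to 1077 CPM in WT CM (-1.29 ± 0.09). Of the synthesis list, Elovl6 (-0.46), Acaca (-0.34) and Elovl5 (-0.13) were not called.

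Cholesterol genes were lower too. Of 28 tested genes of cholesterol synthesis, uptake and efflux, 14 were lower and none higher, with a median of -0.59, and 9 were lower without KO CM replicate 3. Their summed level of 1735 to 1800.2 CPM in KO CM lay below the 2454 to 2739 CPM of WT CM and also below the 2622 to 2671 CPM of undifferentiated cells. Hmgcs1, the first committed enzyme of the mevalonate pathway, had 221, 265 and 205 CPM in KO CM, against 399.8, 391 and 322 CPM in WT CM (-0.69 ± 0.10). Nsdhl (-0.96 ± 0.14), Msmo1 (-1.11), Sqle (-0.59) and the scavenger receptor Scarb1 (-0.59 ± 0.09) were lower, whereas the master factor Srebf2 (-0.11) was not called.

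Mitochondrial pathways were lower as well, with list medians from -0.21 to -0.58. Of 36 tested nuclear genes of oxidative phosphorylation, 27 were lower and none higher, with a median of -0.35. Cyc1, a subunit of complex III, had 281, 264 and 265 CPM in KO CM, against 411, 494 and 388 CPM in WT CM (-0.67 ± 0.09), and Cox7a1 (-1.61 ± 0.25) and Cox8b (-1.74 ± 0.52), isoforms enriched in brown fat and muscle, showed the largest falls. Of 24 tested genes of the TCA cycle and pyruvate metabolism, 16 were lower (median -0.43), among them pyruvate carboxylase Pcx (208 ± 37.7 CPM in KO CM and 436 ± 58.6 CPM in WT CM, -1.07 ± 0.10), Idh3a (-0.93 ± 0.10) and Mdh1 (-0.79 ± 0.08), and the NADP-dependent dehydrogenase Idh2 was higher (0.37 ± 0.08), with 2 higher without WT CM replicate 3 or KO CM replicate 2. Of 22 tested genes of fatty acid oxidation, 12 were lower (median -0.35) and 1 higher. The higher one, Cpt1a, which admits fatty acids to mitochondria, had 74.0, 70.9 and 84.4 CPM in KO CM, against 38.7, 54.5 and 48.7 CPM in WT CM (0.69 ± 0.15), and regular and undifferentiated cells had 15.2 and 69.9 CPM. Of 19 tested genes of branched-chain amino acid breakdown, 13 were lower (median -0.58), led by Dbt (-1.17 ± 0.18) and Bckdhb (-0.95 ± 0.15) of the branched-chain dehydrogenase. Without KO CM replicate 3 the lower members were 16 for oxidative phosphorylation, 7 for fatty acid oxidation and 8 for branched-chain amino acid breakdown. Of 21 tested mitochondrial ribosome genes, 4 were lower, among them Mrpl12 (-0.59 ± 0.11), and 2 without KO CM replicate 2 or 3 (median -0.21). No transcript encoded by the mitochondrial genome was among those analysed.

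Genes of insulin signalling and glycolysis were lower in part. Of 15 tested genes of insulin signalling and glucose transport, 7 were lower (median -0.53), including Pde3b, which ends the cyclic AMP signal (-1.22 ± 0.26), and the receptor substrate Irs1 (-0.90 ± 0.24), and 2 were lower without KO CM replicate 3. The receptor inhibitor Grb14 was higher, with 49.3, 66.5 and 57.8 CPM in KO CM, against 34.6, 30.1 and 33.4 CPM in WT CM (0.82 ± 0.21), and lost the call when all libraries were thinned to the smallest total. Of 28 tested genes of hypoxia and glycolysis, 11 were lower and none higher (median -0.36), with 5 lower without KO CM replicate 3 and 7 without WT CM replicate 1. The oxygen sensor Egln3 had 71.0, 101 and 92.2 CPM in KO CM, against 200, 221 and 173 CPM in WT CM (-1.16 ± 0.12), and the mitophagy receptor Bnip3 (-0.70 ± 0.09) and Ldha (-0.50 ± 0.08) were lower. Regular cells had 341 CPM of Egln3 and undifferentiated cells 21.2 CPM.

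**Figure D4:**
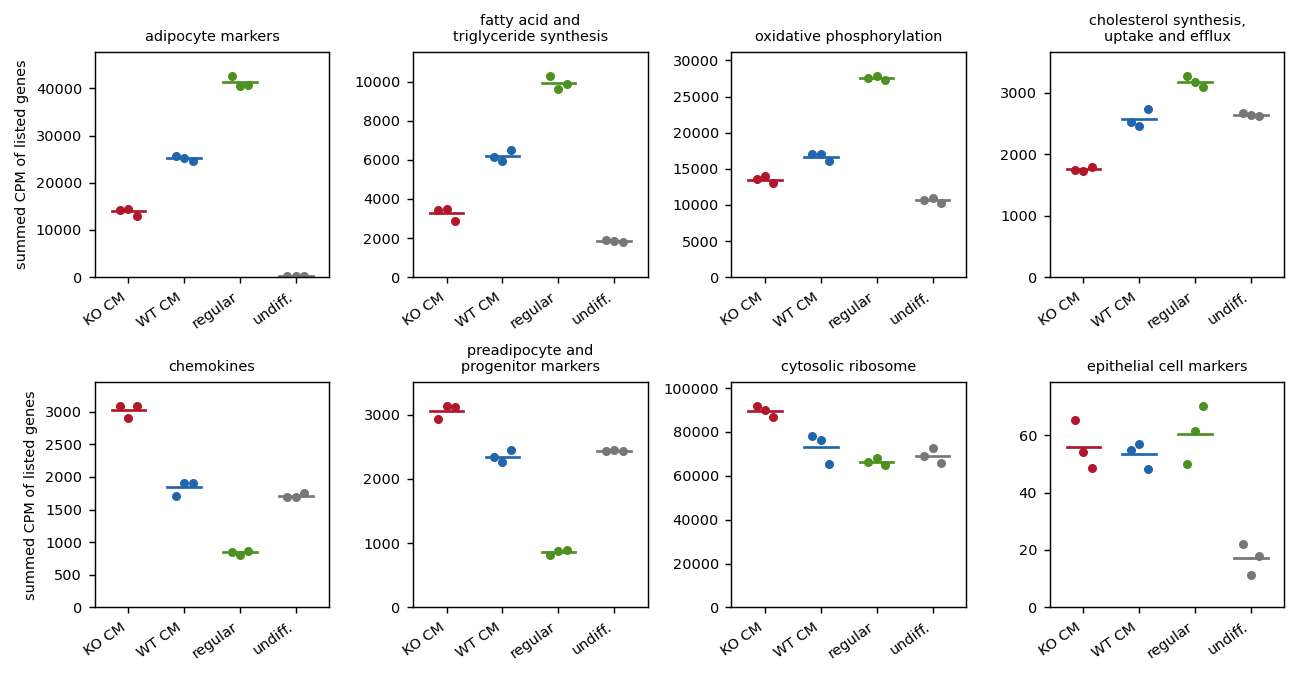
Each point is the summed CPM of a list's genes in 1 library, on axes that start at 0, with group means as lines, for KO CM, WT CM, regular and undifferentiated cells. KO CM lies below WT CM for the first 4 lists and above it for chemokines, preadipocyte markers and the cytosolic ribosome, and overlaps with it for epithelial markers (48.4 to 65.1 CPM in KO CM and 48.3 to 57.1 CPM in WT CM).

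Matrix genes were higher in part. Of 28 tested fibrillar matrix genes, 12 were higher and 2 lower in KO CM, with a median of 0.24. The collagen crosslinking enzyme Lox had 776, 821 and 913 CPM in KO CM, against 432, 457 and 542 CPM in WT CM (0.81 ± 0.09), and the type I collagen chain Col1a2 averaged 13085 ± 193 CPM in KO CM and 9389 ± 295 CPM in WT CM (0.48 ± 0.06). The tenascins Tnn (0.57 ± 0.10) and Tnc (1.00 ± 0.19), fibulin Fbln1 (0.98 ± 0.29) and Col12a1 (0.86 ± 0.27) were also higher, and Col5a3 (-0.45 ± 0.09) and the lysyl hydroxylase Plod2 (-0.75 ± 0.22) were lower, with 1 lower member without WT CM replicate 1 or KO CM replicate 3, where Plod2 lost the call. Of 19 matrix proteases and inhibitors, 7 were higher and 1 lower (median 0.22). The inhibitor Timp2 averaged 605 ± 49.2 CPM in KO CM and 334 ± 33.9 CPM in WT CM (0.86 ± 0.10), and Timp1 (0.73 ± 0.10), Adamts1 (0.56 ± 0.08) and the gelatinase Mmp9 (2.19 ± 0.57, at 9.55 CPM in KO CM and 1.92 CPM in WT CM) were higher. The lower one, Adam12 (-0.86 ± 0.27), lost the call without WT CM replicate 3 and without KO CM replicate 2 or 3.

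Of 22 tested myofibroblast and TGF-beta response genes, 7 were higher and 1, Tgfb1, lower, with a median of 0.16. Calponin Cnn2 averaged 1187 ± 84.6 CPM in KO CM and 705 ± 40.8 CPM in WT CM (0.75 ± 0.09), and thrombospondin Thbs1 (0.66 ± 0.09), tropomyosin Tpm1 (0.51 ± 0.09) and the ligand Tgfb3 (0.93 ± 0.20) were higher, while the smooth muscle actin Acta2 (-0.35) was not called. Tgfb1 lost its call without KO CM replicate 3. In the basement membrane list, perlecan Hspg2 (0.44 ± 0.11) and agrin (Agrn, 0.34) were higher and Col15a1 (-1.30 ± 0.19) and Sparcl1 (-0.28 ± 0.09) lower of 15 tested. The list's median was 0.14, beside 5.86% higher and 6.65% lower over all genes tested. Sparcl1 lost the call without WT CM replicate 3 and without KO CM replicate 2 or 3, and the list had 1 higher member in all fits that left out a library except that without KO CM replicate 1. Of 22 integrin and adhesion genes, 4 were higher, among them Cd9 (0.51 ± 0.09), and 3 lower, among them the laminin receptor chain Itga6, at 46.4, 48.8 and 37.5 CPM in KO CM, against 94.4, 112 and 101 CPM in WT CM (-1.22 ± 0.14). Their median was 0.19.

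Among secreted antagonists and growth factor genes, the BMP antagonist Grem1 (chr2:113746164-113758646, minus strand) had 157, 174 and 226 CPM in KO CM, against 91.6, 61.6 and 98.3 CPM in WT CM (1.14 ± 0.14). Regular cells had 1.46 CPM and undifferentiated cells 53.1 CPM. The secreted frizzled-related protein Sfrp2 (1.45 ± 0.25), Fzd1 (0.43), Id3 (0.37) and Bmp1 (0.31) were the other higher members of 20 tested Wnt and BMP genes, and Id1 (-0.44 ± 0.11) was lower. The median was 0.11, and 3 were higher without WT CM replicate 2 or KO CM replicate 3. For this list and the next, the shares over all genes tested were 5.86% higher and 6.65% lower. In the insulin-like growth factor axis, Igfbp4 (1303 ± 46.5 CPM in KO CM and 919 ± 29.5 CPM in WT CM, 0.50 ± 0.09), Igf2r, Igfbp7 and Dlk1 were higher of 13 tested. The list had 1 higher member without KO CM replicate 3 and 2 without WT CM replicate 1 or 2. The imprinted gene Peg10 (chr6:4747306-4760517, plus strand), listed with them, had 83.9, 92.0 and 71.1 CPM in KO CM, against 272, 298 and 315 CPM in WT CM (-1.86 ± 0.11, edgeR adjusted p = 1.97e-17). It was among the 3 smallest p-values of the table.

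Stress response lists held called genes in both directions, except for the unfolded protein response, beside 5.86% higher and 6.65% lower over all genes tested. Immediate early and heat shock genes were higher for 7 of 28 tested and lower for 2 (median 0.19), with Junb at 1248, 1499 and 1349 CPM in KO CM, against 969, 1006 and 822 CPM in WT CM (0.55 ± 0.10), Egr1 (0.51 ± 0.09) and Ier3 (0.69 ± 0.11) higher and Fosl1 (-0.66 ± 0.14) and the mitochondrial chaperone Hspd1 (-0.42 ± 0.08) lower. In the glucocorticoid response, 5 of 19 were higher, including Dusp1 (0.54) and Sgk1 (0.45), and 3 lower, including Sult1a1 (-0.80 ± 0.17), with a median of 0.25, and 5 were lower without WT CM replicate 3. The transcription factor Xbp1 (404 ± 12.9 CPM in KO CM and 595 ± 36.0 CPM in WT CM, -0.56 ± 0.08), Hspa5 (-0.41 ± 0.09), Dnajb9 and Syvn1 were lower of 21 genes of the unfolded protein response (median -0.10), and 2 were lower without KO CM replicate 3. In the amino acid response and serine synthesis, Psat1 (-0.75 ± 0.10), Phgdh (-0.55) and Slc7a5 (-0.62 ± 0.15) were among 6 lower of 25 (median -0.11), and Atf3 (0.88 ± 0.18) and Cth (0.47 ± 0.15) were higher. The lower members were 3 without WT CM replicate 1 or KO CM replicate 2, and Cth lost the call in 4 fits that left out a conditioned-medium library.

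The oxidative stress and cell cycle lists stand beside 5.86% higher and 6.65% lower over all genes tested. Of 29 oxidative stress and glutathione genes, 3 were higher, among them the secreted superoxide dismutase Sod3 (507 ± 34.3 CPM in KO CM and 297 ± 8.27 CPM in WT CM, 0.77 ± 0.09), and 5 lower, among them Taldo1 (-0.68 ± 0.09) of the pentose phosphate pathway. The median was -0.07, or 0.04 without KO CM replicate 3. The lower ones were 3 without WT CM replicate 1 or 3 or KO CM replicate 2, and the higher ones 1 without WT CM replicate 2. Ferritin heavy chain Fth1, singled out after its level was seen and uncertain because of its pseudogenes, was the most abundant transcript in every KO CM library, at 13802 ± 341 CPM in KO CM and 9470.0 ± 582 CPM in WT CM (0.54 ± 0.06). Of 34 cell cycle genes, Aurkb (-1.63 ± 0.48), Ccnb1 (-1.44 ± 0.39), Mki67 (-1.38) and Tk1 (-0.87 ± 0.24) were lower and the cyclin Ccnd1 (0.31 ± 0.11) higher, with a median of -0.43. The 4 lower ones were at most 18.2 CPM on average in KO CM, and the list had 2 lower members without WT CM replicate 3 or KO CM replicate 2 and 1 without KO CM replicate 3. Aurkb and Ccnb1 lost the call without WT CM replicate 2 and without KO CM replicate 1 or 3, and Aurkb also in DESeq2 and when libraries were thinned to the smallest total. Tk1 lost it without WT CM replicate 3 and without KO CM replicate 2 or 3. Ccnd1 lost its call in most alternatives, among them the fits without WT CM replicate 1 or 2 or KO CM replicate 1 or 3.

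The list of p53 targets, which counts Trp53 itself, had 28 tested genes. Gadd45b was higher (0.70 ± 0.12) and Trp53inp2 lower (-0.45 ± 0.12), beside 5.86% higher and 6.65% lower over all genes tested. The median was 0.05, or -0.03 with total counts. Trp53inp2 lost the call without KO CM replicate 3, and 2 listed genes were higher without WT CM replicate 3 or KO CM replicate 1. Cdkn1a (0.01), Mdm2 (-0.03), Bax (0.36), Gadd45a (-0.27) and Trp53inp1 (-0.19) were not called. Trp53 itself had 48.3, 53.2 and 32.8 CPM in KO CM, against 34.6, 26.3 and 58.8 CPM in WT CM (0.07 ± 0.29, edgeR adjusted p = 0.919), with overlapping groups. Without WT CM replicate 3 and KO CM replicate 3 together it was called higher (edgeR adjusted p = 0.0306).

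The lists that follow stand beside 5.86% higher and 6.65% lower over all genes tested. Of 43 cytosolic ribosome genes, 16 were higher and none lower (median 0.29), and 10 were higher without KO CM replicate 1 or 2. Their summed level was 86991 to 91726 CPM in KO CM, against 65596 to 78358 CPM in WT CM, with the lowest value in WT CM replicate 3. Rplp1 averaged 6166 ± 327 CPM in KO CM and 4569.5 ± 430.0 CPM in WT CM (0.43 ± 0.07), and all of these genes are uncertain because of processed pseudogenes. Of 34 lysosome genes, 5 were higher, among them progranulin Grn (0.36 ± 0.08), with a median of 0.10, and 2 without KO CM replicate 3. Of 32 proteasome genes, 3 were lower, beside 6.65% of all genes tested (median -0.07, or 0.00 without KO CM replicate 3). Psma1 (chr7:114264606-114276118, minus strand) stood apart from the other subunits, with 47.4, 73.2 and 55.5 CPM in KO CM, against 154, 174 and 197 CPM in WT CM (-1.60 ± 0.14, edgeR adjusted p = 4.35e-11). Psma5 (-0.48 ± 0.13) and Psmb7 (-0.61 ± 0.18) were the others, and the list had 1 lower member without KO CM replicate 3 and 5 without undifferentiated replicate 1. Psmb7 lost the call in 10 of 20 alternatives, among them the fits without KO CM replicate 1, 2 or 3, and Psma5 lost it without WT CM replicate 2 or KO CM replicate 3. Of 14 clock genes, Cry2 (-0.53 ± 0.16) and Bhlhe40 (-0.48 ± 0.11) were lower (median -0.30), and 1 was called without KO CM replicate 1 or 3 or WT CM replicate 2 or 3.

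Among single genes with the largest called differences and a mean of at least 10 CPM in the higher group, most of the lowest are scarce in undifferentiated cells. Ghrh, the growth hormone-releasing hormone, had 15.8, 22.2 and 14.8 CPM in KO CM, against 89.6, 78.2 and 59.2 CPM in WT CM (-2.10 ± 0.20), and regular and undifferentiated cells had 138 and 0.783 CPM. The cytochrome Cyp2ab1 (-2.48 ± 0.33), the inositol trisphosphate kinase Itpka (-2.79 ± 0.52), the BMP family ligand Gdf5 (-2.16 ± 0.40), the kinase Wnk4 (-2.04 ± 0.32), the mitochondrial carriers Slc25a34 (-2.06 ± 0.43) and Slc25a10 (-1.82 ± 0.39) and the glycogen-targeting subunit Ppp1r3b (-1.88 ± 0.44) each averaged under 6 CPM in KO CM and 12.1 to 24.9 CPM in WT CM. The transferrin receptor Tfrc was another, at 3.95, 3.33 and 2.34 CPM in KO CM, against 10.2, 14.7 and 11.8 CPM in WT CM (-1.94 ± 0.47). Higher genes at similar levels were the lipid receptor S1pr1 (1.58 ± 0.30), the protocadherin Pcdh7 (1.67 ± 0.35), the transcription factor Batf3 (1.44 ± 0.34) and the secreted Olfm1 (1.46 ± 0.36), which lost the call without KO CM replicate 2.

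Markers of other cell types were scarce. Of 24 epithelial markers, 6 were in the table and 5 tested, and none of these was called. Their summed level was 48.4 to 65.1 CPM in KO CM, against 48.3 to 57.1 CPM in WT CM. Of 16 macrophage and leukocyte markers, 4 were in the table, with a summed level of 14.4 to 30.5 CPM in KO CM, against 13.6 to 14.1 CPM in WT CM. The 2 tested there, Cd68 (0.09) and Lyz2 (0.37), were not called. Of 12 endothelial markers, 1 was in the table and could not be tested. The other listed markers were not analysed here.

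The differences were then placed on the scale of normal differentiation, by regular against undifferentiated cells, a comparison that shares no library with KO CM against WT CM. In that comparison 2774 genes (29.6%) rose and 2630 (28%) fell. Of the genes that rose, 541 (19.5%) were lower in KO CM and 51 (1.84%) higher, with a median log2 fold change of KO CM over WT CM of -0.18. Of the genes that fell, 361 (13.7%) were higher in KO CM and 39 (1.48%) lower, with a median of 0.15. Among the 3974 genes not called in differentiation, 138 (3.47%) were higher and 44 (1.11%) lower. All genes tested, called in differentiation or not, were also grouped by their log2 fold change of regular over undifferentiated cells. The share lower in KO CM was 21.5% of the 910 genes with a value of 1 to 2. It was 40.1% of the 332 at 2 to 4 and 61% of the 200 above 4. Among genes with negative values, the share higher in KO CM did not keep growing with the size of the fall. It was 16.3% of the 829 at -2 to -1, 29.3% of the 311 at -4 to -2 and 23.2% of the 56 at -4 or below. Across the 9378 genes, which are not independent replicates and share 1 fit and scaling, the fold changes of the 2 comparisons had a Pearson correlation of -0.48 and a Spearman correlation of -0.40.

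**Figure D5:**
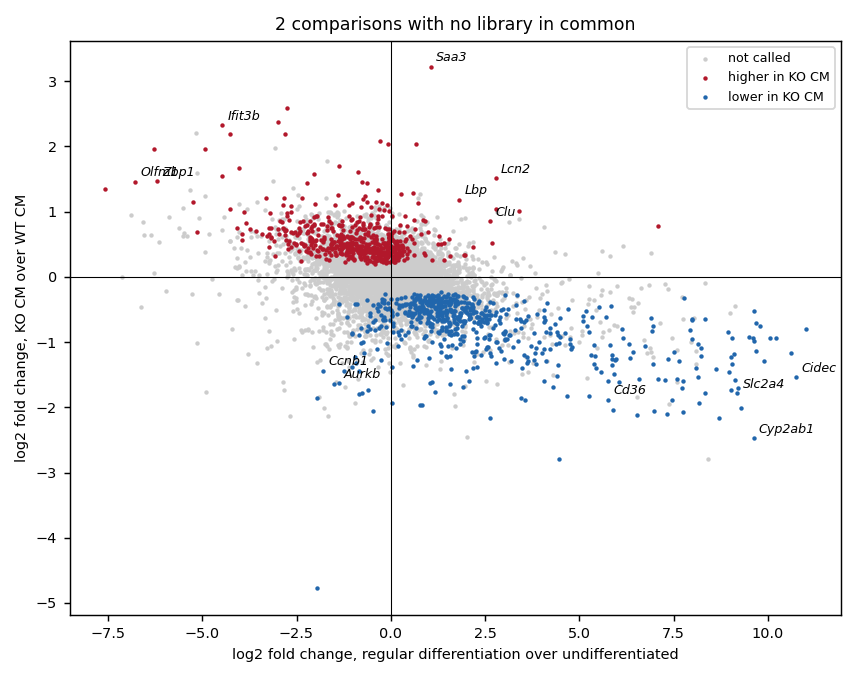
Each point is a gene, with the log2 fold change of regular over undifferentiated cells on the x axis and that of KO CM over WT CM on the y axis, coloured by the call in KO CM against WT CM. Most lower genes (541 of 624) were called as risen in differentiation, right of 0, and most higher genes (361 of 550) as fallen, left of it. Saa3, Lcn2, Lbp and Clu are higher on the right and Ccnb1 and Aurkb lower on the left.

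Examples of the genes off this pattern, picked after their values were seen, do not represent their whole sets. Of the 550 genes higher in KO CM, 51 (9.27%) had risen in regular differentiation, among them Lcn2, Clu, Lbp, Chil1, Serpina3m, Igfbp4, Junb, Fos and Cebpb, and also ribosomal protein genes such as Rps7, Rpl3 and Rps14. Another 138 were not called in differentiation, which does not show that they stayed level, among them Saa3 (1.07 ± 0.75 for regular over undifferentiated cells), Il33, Serping1, Sfrp2, Cd14, C1ra and Gas6, the ligand of the TAM receptors, which averaged 541 ± 112 CPM in KO CM and 285 ± 42.9 CPM in WT CM (0.93 ± 0.11). Of the 624 lower genes, 39 (6.25%) had fallen in differentiation. They include the mitotic genes Aurkb, Ccnb1, Mki67 and Incenp, the sterol genes Sqle and Hsd17b7, and the serine synthesis genes Phgdh and Psph.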

How the data were processed

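RNA from 12 libraries of 3T3-L1 cells (30 ng each, read at the 3′ end by a bulk MARS-seq protocol, per the labels' protocols) was deposited as 1 table. The values used are raw counts of UMIs per gene, as deposited by the authors, for 11022 genes. Reads were trimmed with cutadapt and counted with HTSeq on mm10, per the submitters' processing notes, while the aligner, annotation and strand setting are not given in the sources used here. Antisense and overlapping genes therefore cannot be told apart. The authors also deposited log2 fold changes and adjusted p-values, made with DESeq2 per the submitters' processing notes, which run WT CM over KO CM and serve only for the comparison of counts named as theirs. Another 24 columns of normalized per-sample values were not used.

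Counts were filtered with filterByExpr, scaled by TMM and fitted with edgeR 4.0.16 in R 4.3.3 (robust quasi-likelihood, 1 coefficient for each of the 4 groups, all 12 libraries sharing 1 estimate of the spread). Genes were called at a Benjamini-Hochberg adjusted p under 0.05 over all 9378 genes tested, and SE is the size of the log2 fold change over the square root of the F statistic. Simulated counts were used to test the fit. Totals of 987496 to 2278126 UMIs in the KO CM and WT CM libraries limit low genes, since 3 counts in all 3 libraries of a group correspond to 0.939 CPM in KO CM and 0.565 CPM in WT CM. These limits cover counting error only.

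Members, the 43 gene lists and the tests were chosen with earlier results of these data known. Genes named are the 15 highest and 15 lowest fold changes with a mean of at least 10 CPM in the higher group, the 10 smallest p, 3 called members a list with the members called against its majority, and a short fixed list. Other members that complete a list's counts, uncalled members, and Lbp, Fth1, Gas6, the genes that jumped between replicates and the genes off the differentiation pattern were added after their values were seen. Lists are described by counts and medians only. Promoters are RefSeq windows of GRCm38.p6, searched on both strands, and gene coordinates come from GENCODE M21 on GRCm38.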

Additional observations from a re-analysis of the deposited data

How the results depend on the processing

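No setting gave a called gene the opposite call. Total-count scaling gave 357 higher genes. DESeq2 1.42.0 called 788 genes, 372 higher and 416 lower. Requiring a log2 fold change of at least 1 left 207 genes, 54 higher and 153 lower, and of the genes that rose in differentiation 132 were called (128 lower in KO CM), of those that fell 39 were called (26 higher). Leaving out 1 library at a time gave 756 to 1200 called genes, 377 to 565 higher and 379 to 635 lower, with 379 to 591 called among genes that rose (339 to 544 lower) and 261 to 404 among genes that fell (246 to 366 higher). Leaving out WT CM replicate 3 and KO CM replicate 3 together, an alternative chosen after seeing the data, gave 761 called genes with 377 lower, and 390 called among genes that rose, 349 of them lower. Same-numbered libraries did not deviate together (correlations of -0.001, -0.020 and -0.025), and a replicate block gave 1220 called genes. Of 164 named genes tested, 122 were called in all 20 settings that gave an adjusted p and 39 lost the call in at least 1. Depth limits genes near 1 CPM, and thinning to the smallest total left 921 called genes.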
